A study of Nothobranchius furzeri with 10 samples.

Results

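The genes described here were those raised together in brains JG74 and JG81, 2 of 10 brain RNA libraries of the turquoise killifish Nothobranchius furzeri, an annual fish used in ageing research. A gene was taken when it had at least 1 count in every library, a mean level of at least 3 and under 1000 CPM (counts rescaled so that each library sums to 1000000), and a CPM in both JG74 and JG81 of at least 3 times its own median over the 10 libraries. The rule found 191 of the 26739 genes listed, or 1.22% of the 15691 genes that met its abundance limits. These values chose the genes, so the height of JG74 and JG81 is given as a description with no test.

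All 10 libraries carried the same label. They came from brains of male fish of the GRZ strain, aged 10 weeks, with swim-tunnel given as the perturbation, that is, exercise in a chamber where fish swim against a current. The samples used here hold no unexercised fish, and no label separates JG74 or JG81 from the others. Libraries are called by the JG number in their titles. Whether each library is a different fish is not stated, and the p-values therefore speak only of the spread over these libraries, part of which may be technical. Totals lay between 22958779 and 28223263 counts, and JG74 (22958779) and JG81 (24072858) were among the 4 smallest. A total of 3 counts corresponded to between 0.106 and 0.131 CPM.

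A brain library averages over neurons, glia, vessels, blood and any tissue dissected with the brain, so a gene's level depends both on how many cells use the gene and on how strongly each does. In bulk samples such as these, fewer cells of a type and less RNA per cell cannot be told apart. The files do not pair the gene identifiers with names, and 0 of them matched the 38438 genes of the RefSeq table for the species. Roles, cell types and sequences of the genes are therefore not given here, the tissue label was not checked against brain markers, and only a few identifiers are printed.

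Together the 191 genes took 0.906% of all counts in JG74 and 0.801% in JG81. Their share was 0.202% in JG76, 0.137% in JG78, 0.115% in JG83 and 0.102% in JG80. It was 0.0904% in JG84, 0.0835% in JG75, 0.0819% in JG82 and 0.0802% in JG77. JG76 thus lay below JG74 and JG81 and above each of the 7 remaining libraries.

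Gene by gene, levels were set against the median CPM of the 7 libraries other than JG74, JG81 and JG76. In JG74 the 191 genes had a median of 8.07 times this level, with quartiles of 5.48 and 17.7 times and a highest value of 362 times. JG81 had a median of 7.14 times, with quartiles of 4.49 and 13.7 times and a highest value of 237 times. Over all 15691 genes open to the rule the medians were 0.973 times in JG74 and 1.01 times in JG81. Both libraries exceeded all 8 others in 188 of the 191 genes (98.4%), against 6.91% of the genes open to the rule. That count follows largely from the choice of the genes, and nothing is read from it.

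**Figure D1:**
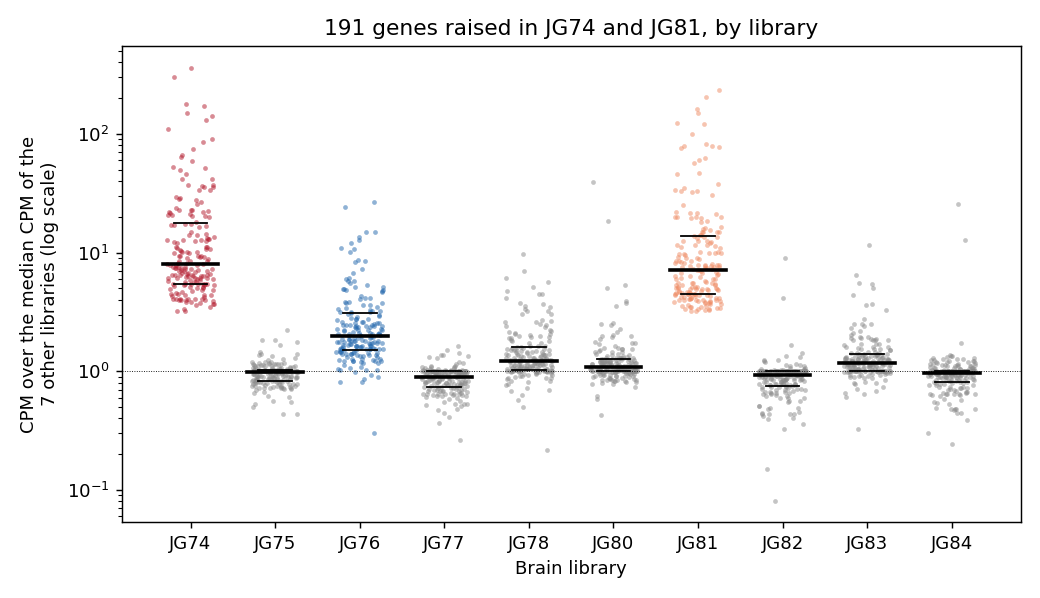
CPM of each of the 191 genes in each library, divided by the gene's median CPM over the 7 libraries other than JG74, JG81 and JG76 (log scale). Each point is a gene, thick bars are medians and thin bars quartiles. JG76 (median 1.99 times) lies between the 2 raised libraries (8.07 and 7.14 times) and the rest.

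The raise ran from just over the threshold to more than 30-fold, taking the lower of JG74 and JG81 over the median of 10 libraries. In 87 genes it was between 3 and 5 times, in 58 between 5 and 10 times, in 35 between 10 and 30 times, and in 11 at least 30 times. The genes with the largest raise had low medians over the 7 libraries, though JG76 was at a median of 10.96 times that level in them. Those 11 had a median of 0.587 CPM over the 7 libraries, while the 87 genes with the smallest raise had a median of 3.15 CPM. In all, 33 of the 191 genes (17.3%, against 0.242% of all genes open to the rule) had a median under 1 CPM in the 7 libraries. A gene so low there meets the limit of a mean of 3 CPM only if other libraries are high, so the choice of the genes favours this. Low counts limit these ratios, and 22 of the 191 genes had fewer than 10 counts in at least 1 library.

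At the edge of the rule the genes were much alike. The 3 members nearest to it had a lower fold of 3.002, 3.01 and 3.03 times the median, and the 3 nearest genes outside had 2.98, 2.98 and 2.97 times. The level in JG76 was 1.45, 1.31 and 1.64 times the median of the 7 libraries in the former and 1.25, 1.48 and 1.39 times in the latter. A further 110 genes had a lower fold between 2 and 3, so the group had no sharp border. The reverse pattern was rare, with 6 genes at no more than 0.333 of the median in both JG74 and JG81.

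Raised genes were most numerous in these 2 libraries one by one as well. Among the 15691 genes, 245 reached 3 times the median in JG74 and 252 in JG81, against 58 in JG76, 36 in JG78, 21 in JG77 and between 1 and 9 in each of JG75, JG80, JG82, JG83 and JG84. The 191 genes made up 77.96% of the JG74 genes and 75.8% of the JG81 genes. Of the 54 genes past the threshold in JG74 alone, 32 were at 2 times or more in JG81, and of the 61 past it in JG81 alone, 28 were at 2 times or more in JG74. Over all 15691 genes the upper quartile was 1.09 times the median of 10 in JG74 and 1.11 times in JG81. How many of all genes reached 2 times was not counted, so these overlaps are only described. JG76 exceeded all 7 other libraries in 36 of those 54 genes and in 6 of those 61, where 11.7% of all genes open to the rule did so. The level in JG76 over the median of the 7 went the other way, with a median of 1.44 times in the 54 genes and 1.82 times in the 61. The lists were chosen on the same libraries, and these differences were not tested.

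JG74 was the higher of the pair in most genes. It exceeded JG81 in 130 of the 191 genes (68.1%), where 42.1% of all genes open to the rule were higher in JG74. The CPM ratio of JG81 over JG74 had a median of 0.803 among the 191 genes, with quartiles of 0.654 and 1.10, against a median of 1.05 over all 15691 genes. With 1 library on each side this difference has no replicate check. In most of the genes it was larger than counting error. The exact 95% interval of the ratio, from the binomial split of a gene's counts, lay below 1 in 107 genes (56.0%, against 27.2% of all genes), above 1 in 49 (25.7%, against 38.2%), and held 1 in 35 (18.3%, against 34.6%). These intervals cover counting error only.

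**Figure D2:**
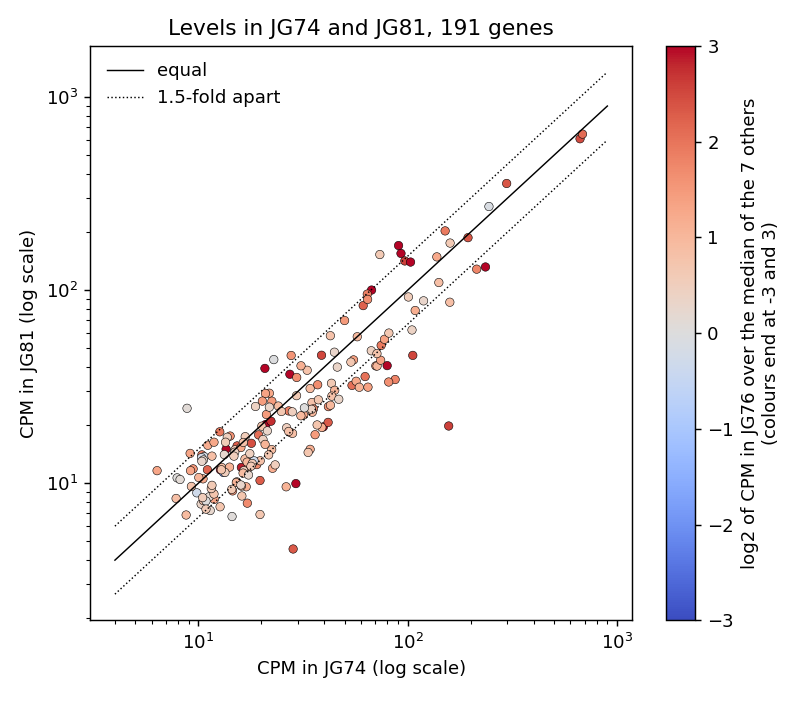
CPM in JG74 and in JG81 of the 191 genes (both axes log scale). The solid line marks equal levels and the dotted lines a 1.5-fold difference, and colour gives the log2 ratio of JG76 to the median of the 7 other libraries. Most points lie within the dotted lines (127 genes), with 55 on the JG74 side and 9 on the JG81 side.

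JG74 and JG81 lay within 1.5-fold of each other in 127 genes (66.5%, against 84.7% of all genes open to the rule). JG74 was at least 1.5 times JG81 in 55 genes (28.8%, against 9.47%), and JG81 at least 1.5 times JG74 in 9 (4.71%, against 5.78%). The 55 genes on the JG74 side were at a median of 13.5 times the median of the 7 libraries in JG74 and 7.06 times in JG81. The 9 genes on the JG81 side were at 7.38 times in JG74 and 15.6 times in JG81. These 9 also stood higher in JG78, at a median of 3.21 times, and in JG83, at 1.92 times, where the 55 were at 1.18 and 1.09 times. The classes were formed from the same libraries, and with 9 genes on one side the contrast is a description.

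The genes of mean CPM at least 10 with the widest differences between the pair show both sides. Nfu_g_1_016847 (1052 bp by the length recovered from the deposited tables) had 157 CPM in JG74, 19.8 in JG81 and 5.55 in JG76. Its other 7 libraries lay between 0.564 CPM in JG77 and 3.47 in JG80, with a median of 0.917. JG74 thus stood far above JG81, at a ratio of JG81 over JG74 of 0.126 (interval 0.114 to 0.139, counting error only), and JG81 in turn above JG76.

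Nfu_g_1_006804 (3990 bp) had 87.2 CPM in JG74, 34.5 in JG81 and 10.4 in JG76, and between 2.08 and 6.09 in the other 7. The order of the top 3 libraries was the same as in the gene before, with a ratio of 0.395 (0.364 to 0.429). On the other side, Nfu_g_1_012545 (3867 bp) had 153 CPM in JG81, 73.7 in JG74, 65.9 in JG78 and 31.2 in JG76, and between 15.2 and 24.0 in the other 6. JG78, and not JG76, came next after the pair, and the ratio was 2.08 (1.96 to 2.20).

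Nfu_g_1_014152 (6182 bp) had 43.7 CPM in JG81 and 22.95 in JG74, a ratio of 1.91 (1.71 to 2.12). Its other 8 libraries lay between 4.39 CPM in JG78 and 6.89 in JG84, with 5.58 in JG76. JG76 was at 0.982 times the median of the 7 libraries here, and the raise was seen in the pair only.

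**Figure D3:**
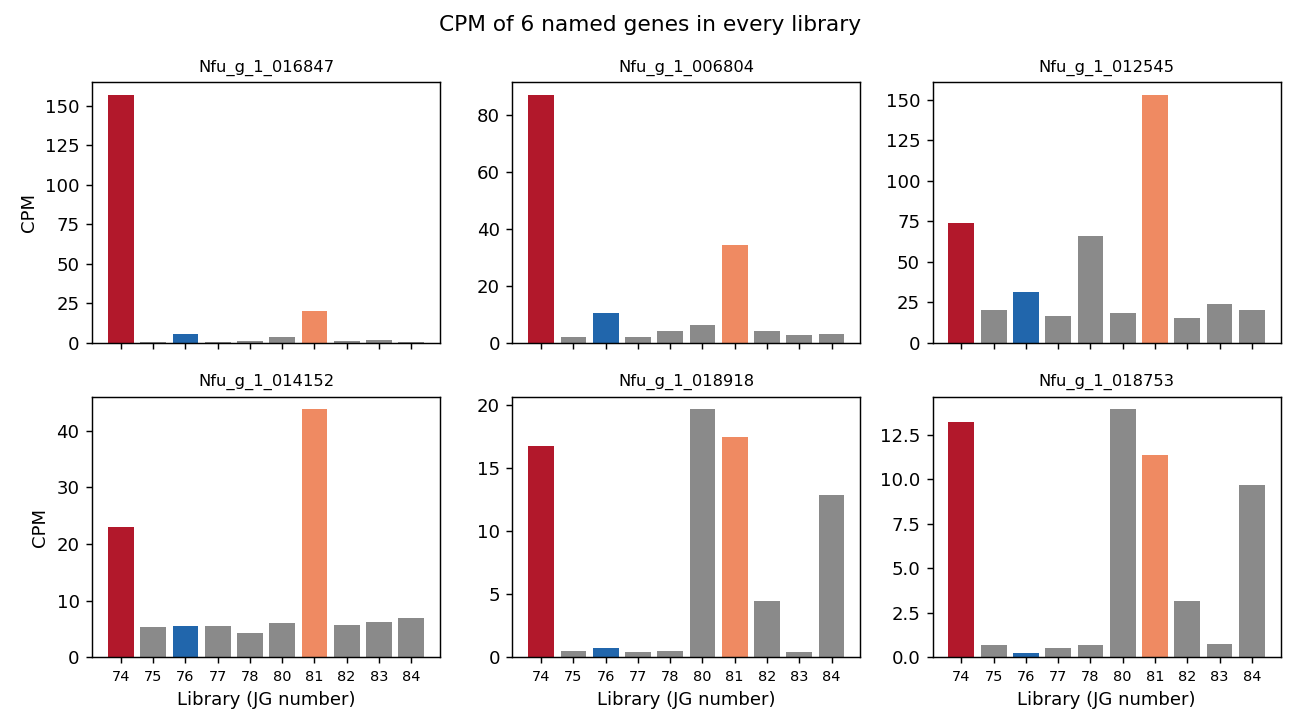
CPM of 6 genes in every library (bars from 0, 1 library each, so no error bar). Nfu_g_1_016847 and Nfu_g_1_006804 are highest in JG74, Nfu_g_1_012545 and Nfu_g_1_014152 in JG81, and Nfu_g_1_018918 and Nfu_g_1_018753 in JG80.

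JG76 was intermediate in nearly all of the genes. In their choice it had served only as 1 of the 10 libraries behind the median, the mean level and the minimum count. It had been noticed in these data, however, so its level is given without a test. It lay above the median of the 7 other libraries and below both JG74 and JG81 in 184 of the 191 genes (96.3%, against 7.48% of all genes open to the rule). The place below both JG74 and JG81 was held in all 191 genes, against 32.9% of all genes open to the rule. That follows largely from the choice of the genes, so nothing is read from the gap between 96.3% and 7.48%. The rule did not require a level above the median of the 7, which was seen in 96.3% against 43.4%. JG76 exceeded every one of the 7 in 152 genes (79.6%, against 11.7%). Its level was a median of 1.99 times the median of the 7, with quartiles of 1.52 and 3.11, while over all genes the median was 0.977 times. It reached 2 times in 95 genes (49.7%, against 1.84%) and 3 times in 51 (26.7%, against 0.701%).

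The level in JG76 went with the size of the raise in JG74 and JG81. In the 87 genes raised 3 to 5 times JG76 had a median of 1.53 times, in the 58 raised 5 to 10 times 2.23 times, in the 35 raised 10 to 30 times 4.13 times, and in the 11 raised at least 30 times 10.96 times. Folds in the 3 libraries share 1 denominator, so they are set side by side and no correlation is given.

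Counted as CPM above the median of the 7 libraries, the excess in JG76 was a median of 11.8% of that in JG74 (quartiles 7.43% and 17.3%) and 15.3% of that in JG81 (quartiles 9.90% and 21.3%). The share of the JG74 excess had a median of 12.1% in the genes raised 3 to 5 times, 12.6% at 5 to 10 times and 11.8% at 10 to 30 times. It was lower, at 7.27%, in the 11 genes raised at least 30 times. That class was formed on high values in the pair, and the JG74 excess divides the share. The lower value may thus follow from the choice of the class and is only described. The excess in JG81 was a median of 76.5% of that in JG74.

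**Figure D4:**
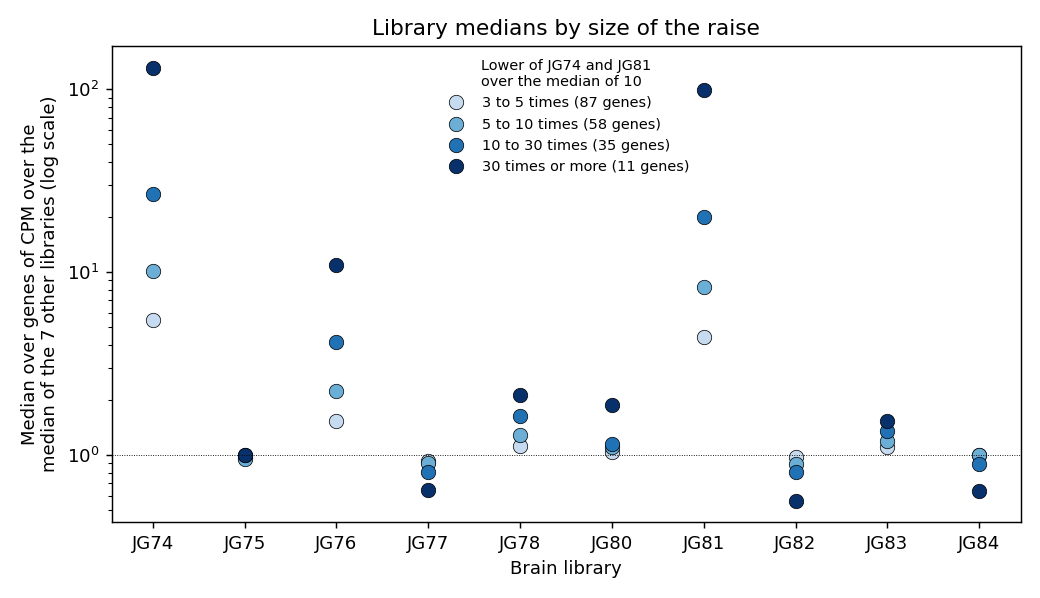
Median over genes of CPM relative to the median of the 7 libraries other than JG74, JG81 and JG76 (log scale), by library, for 4 classes of the lower fold of JG74 and JG81 over the median of 10. JG76 rises from 1.53 to 10.96 times over the classes, and JG78 from 1.12 to 2.14 times.

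A minority of the genes departed from this order. In 7 genes JG76 was below the median of the 7 libraries. Their median raise was below that of the group, at 4.37 times in JG74 and 5.05 times in JG81. It was not small in all of them. In JG74 it ran from 3.69 to 17.4 times, and in JG81 some of these genes exceeded the group's median of 7.14 times. In 39 genes JG76 was not the highest of the 8 libraries outside the pair. JG80 led those 8 in 12 genes (6.28%, against 9.48% of all genes open to the rule), JG78 in 9 (4.71%, against 6.47%) and JG83 in 8 (4.19%, against 21.4%). JG84 led in 5 (2.62%, against 20.7%) and JG75 in 3 (1.57%, against 11.4%). JG77 and JG82 led in 1 gene each (0.524%), against 10.8% and 7.99% of all genes.

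In 3 genes, named here after their values were seen, JG74 and JG81 were not the top pair. Nfu_g_1_018918 had 19.6 CPM in JG80, 17.4 in JG81, 16.8 in JG74, 12.8 in JG84 and 4.48 in JG82, and between 0.434 and 0.727 in JG75, JG76, JG77, JG78 and JG83. Nfu_g_1_018753 had 13.9 CPM in JG80, 13.2 in JG74, 11.4 in JG81, 9.68 in JG84 and 3.15 in JG82, and between 0.229 and 0.758 in the same 5 libraries. Both genes were thus high in 4 libraries, intermediate in JG82 and near silent in 5, a pattern unlike that of the group, and they stood in consecutive rows of the deposited table. The third gene, Nfu_g_1_009551, had 11.6 CPM in JG81, 7.14 in JG78, 6.36 in JG74 and 3.94 in JG76, with 0.708 to 2.30 in the others.

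By their medians over the 191 genes, the 7 remaining libraries were close to each other, with a small order of their own. The 191 genes had a median of 1.23 times the median of the 7 in JG78, 1.18 times in JG83, 1.08 times in JG80, 0.994 times in JG75, 0.960 times in JG84, 0.923 times in JG82 and 0.902 times in JG77. The same medians over all genes lay between 0.983 and 1.01 times. The 11 genes raised at least 30 times spread wider, with medians from 0.564 times in JG82 to 2.14 times in JG78. JG78 was the highest of the 7 in 71 of the 191 genes (37.2%, against 8.24% of all genes open to the rule) and JG80 in 41 (21.5%, against 10.5%). JG83 led in 48 (25.1%), which is near the 22.1% of all genes.

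Small raises in these libraries fell largely on genes that were raised in JG76 as well. JG78 reached 1.5 times the median of the 7 in 56 genes (29.3%, against 1.39% of all genes open to the rule), and 55 of them were at 1.5 times or more in JG76. JG83 did so in 41 genes (21.5%, against 1.01%), of which 38 were raised in JG76 and 28 in JG78. JG80 did so in 28 genes (14.7%, against 1.17%), of which 24 were raised in JG76, 14 in JG83 and 12 in JG78. In JG76 itself 145 genes passed that level (75.9%, against 4.10%). The overlap of JG80 with JG76, at 85.7%, was not far from that share. The 56 genes raised in JG78 had larger folds in the pair, at medians of 16.0 times in JG74 and 14.1 times in JG81, than the other 135 genes, at 7.05 and 5.33 times. They were also lower over the 7 libraries, at 1.90 against 2.86 CPM. All these folds divide by the median of the 7, so a low median raises them together, and they are only described.

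Whether the genes varied in libraries that the rule did not require to be high was tested over the 8 libraries other than JG74 and JG81. An edgeR model gave every gene 1 mean over these libraries, and its deviance was set against the dispersion trend at that abundance, with Benjamini-Hochberg adjustment over all genes tested at 0.05. Of the 191 genes, 179 passed the filter of a mean of 1 CPM over those 8 libraries, and 50 of these varied beyond the trend (27.9%), where 5.81% of all 17823 genes did so. Some genes met that filter through JG76. With no abundance filter, all 191 genes were tested and 58 passed (30.4%, against 5.15%). JG76 was the highest of the 8 libraries in 40 of the 50 genes, JG78 in 6, JG80 in 3 and JG83 in 1. JG76 had been noticed in these data, so calls that rest on it are no independent support for its level.

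Without JG76 the count fell to 23 of 169 genes (13.6%, against 5.20% of all genes), 22 of them among the 50. JG78 was the highest of the 7 libraries in 11 of the 23, JG83 in 6, JG80 in 5 and JG84 in 1. By dispersion outliers of DESeq2, 17 of 179 genes passed over the 8 libraries (9.50%, against 1.99%). With all 10 libraries in the edgeR fit 190 of 191 genes passed, against 6.76% of all genes, but that fit uses the values that chose them and nothing is read from it.

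The named genes differed in this test. Nfu_g_1_018918 (edgeR, adjusted p = 3.00e-42) and Nfu_g_1_018753 (edgeR, adjusted p = 1.70e-29) varied beyond the trend over the 8 libraries, and kept the call without JG76 (adjusted p = 2.84e-39 and 1.71e-24, edgeR). The same held for Nfu_g_1_012545 (edgeR, adjusted p = 8.80e-10, and 1.39e-10 without JG76) and Nfu_g_1_016847 (9.13e-07 and 0.00853). Nfu_g_1_006804 passed with JG76 (edgeR, adjusted p = 0.00144) and not without it (0.983). Nfu_g_1_009551 passed with and without JG76 (edgeR, adjusted p = 6.78e-06 and 7.38e-06). Nfu_g_1_009551, Nfu_g_1_018918 and Nfu_g_1_018753 were named because a library among the 8 exceeded JG74 or JG81. Their calls, with and without JG76, thus follow largely from that choice, and nothing is read from them. Nfu_g_1_014152 did not pass (edgeR, adjusted p = 1).

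The 191 genes also moved with each other in the libraries outside the pair. Each gene's log2 CPM (0.5 CPM added) was correlated with the mean of the other 190 genes. Over the 8 libraries r had a median of 0.841, with 169 genes above 0.5 (88.5%), against a median of -0.0761 and 3.15% above 0.5 among the 15500 other genes open to the rule. Over the 7 libraries without JG76 the median was 0.679, with 129 genes above 0.5 (67.5%), against 0.00501 and 6.92%. The points are the same few libraries for every gene, and depth and composition of a library are shared by all its genes, so these values describe the libraries and carry no p.

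Gene length, which the rule did not use, was described without a test. Lengths recovered for all 191 genes had a median of 2720 bp, with quartiles of 1508.5 and 3875.5 bp, against 2943 bp over the genes open to the rule. The 35 genes raised 10 to 30 times had a median of 2088 bp, the 58 raised 5 to 10 times 2210.5 bp and the 87 raised 3 to 5 times 3143 bp, while the 11 raised at least 30 times had 2779 bp. Levels per length (mean RPKM, CPM per kilobase of gene, made with each library's own total) ran from 0.570 to 183 over the 191 genes, with a median of 3.03, against 10.2 over all genes open to the rule. The gene with the highest level per length had 685 CPM in JG74, 644 in JG81, 199 in JG76, 109 in JG78, 75.7 in JG83 and 53.9 in JG80, and between 36.3 and 45.8 in JG75, JG77, JG82 and JG84. JG76 came below the pair, with JG78, JG83 and JG80 next, as in the medians of the group, while the order of the 4 lowest libraries was not that of the group.

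Some of the genes stood side by side in the deposited table, whose row order the sources used here do not explain. There were 8 sets of consecutive rows holding 17 of the 191 genes, 7 of them pairs and 1 of 3 genes. How many such sets 191 genes taken at random would form was not counted, so the number is not read as low or high. Within these sets the lowest correlation of log2 CPM over the 8 libraries outside the pair ran from 0.626 to 0.978, which is no measure of likeness beyond the group, since over the same libraries the 191 genes had a median r of 0.841 with the mean of the others. In the set with the largest raise the genes had 236 and 39.6 CPM in JG74, 132 and 19.6 in JG81 and 17.2 and 3.17 in JG76, and ratios of JG81 over JG74 of 0.560 and 0.495. No coordinates are used here, and reads shared between overlapping or near-identical genes could have been split between such rows.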

How the data were processed

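Per the submitters' processing notes, the tools were featureCounts 1.4.6-p4, STAR 2.4.1d and bcl2fastq 1.8.4. Which genome build and gene models they used, and whether counting was stranded, is not given in the sources used here. The authors deposited a raw count table and an RPKM table for 26739 genes in 10 libraries. The counts were used throughout. The deposited RPKM were not used as levels. Computed with each column's own total, they gave lengths whose coefficient of variation over libraries (SD over mean) had a median of 11.2%. With the 10 totals taken in turn down the columns, its median was 0.0159% and its highest value 0.0552%. Both are over 161 genes of the group, and the totals taken in turn gave the gene lengths.

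CPM used library totals. Computations used Python 3.11.15, numpy 2.4.6, pandas 2.3.3, scipy 1.17.1, and in R 4.3.3 edgeR 4.0.16 (TMM scaling, trended dispersion, chi-square with 7 degrees of freedom) and DESeq2 1.42.0. The variability test was tested on simulated counts for 17823 genes in 8 libraries. It recovered 90% of 200 genes with 10 times the trend dispersion, with 11 false calls. The tested genes of the group lay far nearer the trend. The square root of their dispersion had a median of 0.307, where that of the trend had a median of 0.276. Recovery and false calls at such a spread were not tested. The genes and classes were chosen with earlier results of these data known. JG74, JG81 and JG76 stand out by their values, so no p-value sets any of them alone against the other libraries. JG76 is, however, among the 8 libraries of the variability test, and most genes of the group called there were highest in JG76. Named genes were those of mean CPM at least 10 with the 2 highest and 2 lowest ratios of JG81 over JG74, and the 3 in which JG74 and JG81 were not the top pair, chosen after their values were seen. Lists of cell type markers were not evaluated, since no identifier matched a name. No column was left out (0).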

Additional observations from a re-analysis of the deposited data

Results flagged for a closer look

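In 4 of 9 measures over the 10 libraries, the gap between 1 library and the next was a larger part of the whole range than the 95% bound of Dixon's test. All 4 are genes picked as the extremes of the ratio of JG81 over JG74, so the gap follows from the choice, the usual 1 in 20 from chance does not apply, and nothing is read from it. The values were 157 CPM of Nfu_g_1_016847 in JG74 (gap 0.877 of the range), 87.2 CPM of Nfu_g_1_006804 in JG74 (0.619), 153 CPM of Nfu_g_1_012545 in JG81 (0.576) and 43.7 CPM of Nfu_g_1_014152 in JG81 (0.528). The share of counts taken by the 191 genes, the library totals, the number of genes detected, Nfu_g_1_018918 and Nfu_g_1_018753 had no such gap. The measure looks at 1 library against the next, so libraries that stand out together hide each other. This was so for the share of counts, at 0.906% in JG74 and 0.801% in JG81 against 0.202% in JG76, and nothing is read from the missing gap.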

How the results depend on the processing

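Of 131 values under other settings, 113 stayed close to the value given and 18 moved, with 0 turned in direction. Numbers of genes have no direction to turn, and the rule requires high levels in JG74 and JG81 under every setting. The 0 was thus in part fixed in advance, and nothing is read from it. A minimum of 10 counts in every library was chosen after seeing the data. The 191 genes became 291 at a mean CPM of at least 1, 66 at 10 and 301 at a fold of 2 (131 at a fold of 4), by construction of the limits. TMM scaling gave 188 genes and DESeq2 size factors 188, of which 188 and 187 were among the 191. At a fold of 2 the medians were 5.49 times in JG74, 4.67 in JG81 and 1.62 in JG76, which exceeded all 7 others in 68.1% of genes, and at a fold of 4 they were 12.5, 9.98 and 2.47 times and 88.5%. At a mean CPM of at least 10 JG74 had 9.36 times and JG76 exceeded the 7 in 86.4%, and at 10 counts in every library JG81 had 6.14 times. The 50 variable genes became 18 of 53 at 5 CPM, 17 by DESeq2 dispersion outliers (the cause was not tested) and 190 with all 10 libraries. Without each of the 8 other libraries in turn, the rule found 186 to 201 genes, JG74 had 7.82 to 8.75 times, JG81 6.89 to 7.52, and JG76 2.002 to 2.07. JG76 exceeded the others in 80.7% to 85.0%, the ratio of JG81 over JG74 was 0.808 to 0.837, JG74 was higher in 66.0% to 68.0%, and 23 (without JG76) to 54 genes varied. No paired analysis was possible because the libraries form 1 group. Depth limits the folds of genes that were low in most libraries outside the pair. Over the 10 libraries, 3 counts were 0.106 to 0.131 CPM.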
